A study of Caenorhabditis elegans with 6 samples.

Results

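The transsulfuration and hydrogen sulfide genes of C. elegans described here are 10 genes, taken by name from the 46778 listed in the count tables: cth-1, cth-2, cbs-1, cbs-2, cysl-1, cysl-2, cdo-1, rhy-1, sqrd-1 and ethe-1. The set was chosen by measured values, since cth-1 was lower on the JUb74 diet in both genotypes grown on it, so the diet values below are a description and carry no test. All 10 had enough reads to be tested in the other comparisons. RNA was sequenced from whole worms harvested as L4 larvae, which had eaten since L1 either E. coli OP50, the usual food in the laboratory, or Microbacterium sp. JUb74, a diet that the series title calls rich in branched-chain fatty acids. There were 5 groups, namely wild type and scav-4(unk59) on each of the foods and scav-4(unk49) on OP50, each with 2 libraries. The mutated gene scav-4 encodes a relative of CD36, a mammalian lipid receptor. unk59 is carried by strain CGZ413 and unk49 by strain CGZ337. The labels do not describe the molecular change of either allele, nor whether a group's libraries were grown as separate cultures, so n counts libraries and the p-values may measure technical spread only. scav-4(unk49) on JUb74 was not analysed here.

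Transsulfuration moves sulfur from homocysteine to cysteine. Cystathionine synthase joins homocysteine to serine, and cystathionine lyase cleaves the product to give cysteine. The same enzymes can release hydrogen sulfide, a gas that is a signal at low levels and poisons mitochondrial respiration at higher ones. In C. elegans, sulfide is sensed through CYSL-1, which binds the hydroxylase EGL-9 and so frees the transcription factor HIF-1, while mitochondria oxidise sulfide through SQRD-1 and ETHE-1.

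The libraries held between 21937088 and 22692632 read pairs in genes. The mutated gene scav-4 had 141 and 162 reads in the libraries labelled unk49, against 234 to 1031 in the other 8, and unk59 libraries lay between 761 and 890. Markers of intestine, hypodermis, muscle, neurons and germ line were all above 3 reads in every library. Markers of developmental timing differed widely between groups of the same labelled stage. The summed level of 11 oocyte and eggshell genes was 81.7 and 83.7 CPM (a gene's count relative to the scaled size of its library) in wild type on OP50, 11.1 and 15.7 in wild type on JUb74 and 14.3 and 26.2 in unk59 on OP50. It was 1411 and 2063 in unk59 on JUb74, and 4343 and 1707 in unk49 on OP50. The summed level of 10 moulting-cycle genes lay between 2978 and 5494 CPM in the former 3 groups, at 141.5 and 212.6 in unk59 on JUb74, and at 1044 and 779 in unk49 on OP50. The part of this difference in the results below was not tested unless a value is given. In whole worms, fewer cells of a type and less RNA per cell cannot be told apart.

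The members lie on chromosomes II, IV, V and X of the WBcel235 build. cth-1 (WBGene00009048, chromosome V, 16100680 to 16102750, plus strand) shares no bases with another annotated gene. cdo-1 (WBGene00018986, chromosome X, 862267 to 863578) shares 127 exonic bases with F56F10.2 on the opposite strand, where reads were left out as ambiguous. On chromosome II lie cth-2 (WBGene00022856, 7056184 to 7057960), cbs-2 (WBGene00018783, 2220396 to 2223567), cysl-2 (WBGene00010759, 14492874 to 14494451) and rhy-1 (WBGene00012324, 9161379 to 9163448). On chromosome X lie cbs-1 (WBGene00013866, 10054275 to 10057528) and cysl-1 (WBGene00007653, 9952579 to 9954533), and on chromosome IV sqrd-1 (WBGene00008538, 14219871 to 14224440) and ethe-1 (WBGene00007886, 9506936 to 9508761). All 10 are annotated as protein-coding. Opposite-strand genes share 82 exonic bases with rhy-1, 36 with cysl-2, 30 with cbs-2 and 8 with cth-2. Annotated genes of small RNAs (piRNAs) share 14 and 21 exonic bases with sqrd-1 on the opposite strand. On the same strand they share 21 with sqrd-1 and 21 with ethe-1. Compared per kilobase of exon, the level of cth-2 was the highest of the members in every library, between 266.7 and 588 CPM per kilobase. In wild type on OP50 it was followed by cth-1 at 154.5 and 112.3 and by cysl-1 at 52.8 and 53.7, and then by cbs-1 at 29.2 and 21.6 CPM per kilobase. cdo-1, cysl-2 and rhy-1 lay between 4.86 and 16.8 with overlapping libraries, and ethe-1 was at 4.18 and 3.51. cbs-2 and sqrd-1 were the least abundant, both under 1 CPM per kilobase in that group.

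**Figure D1:**
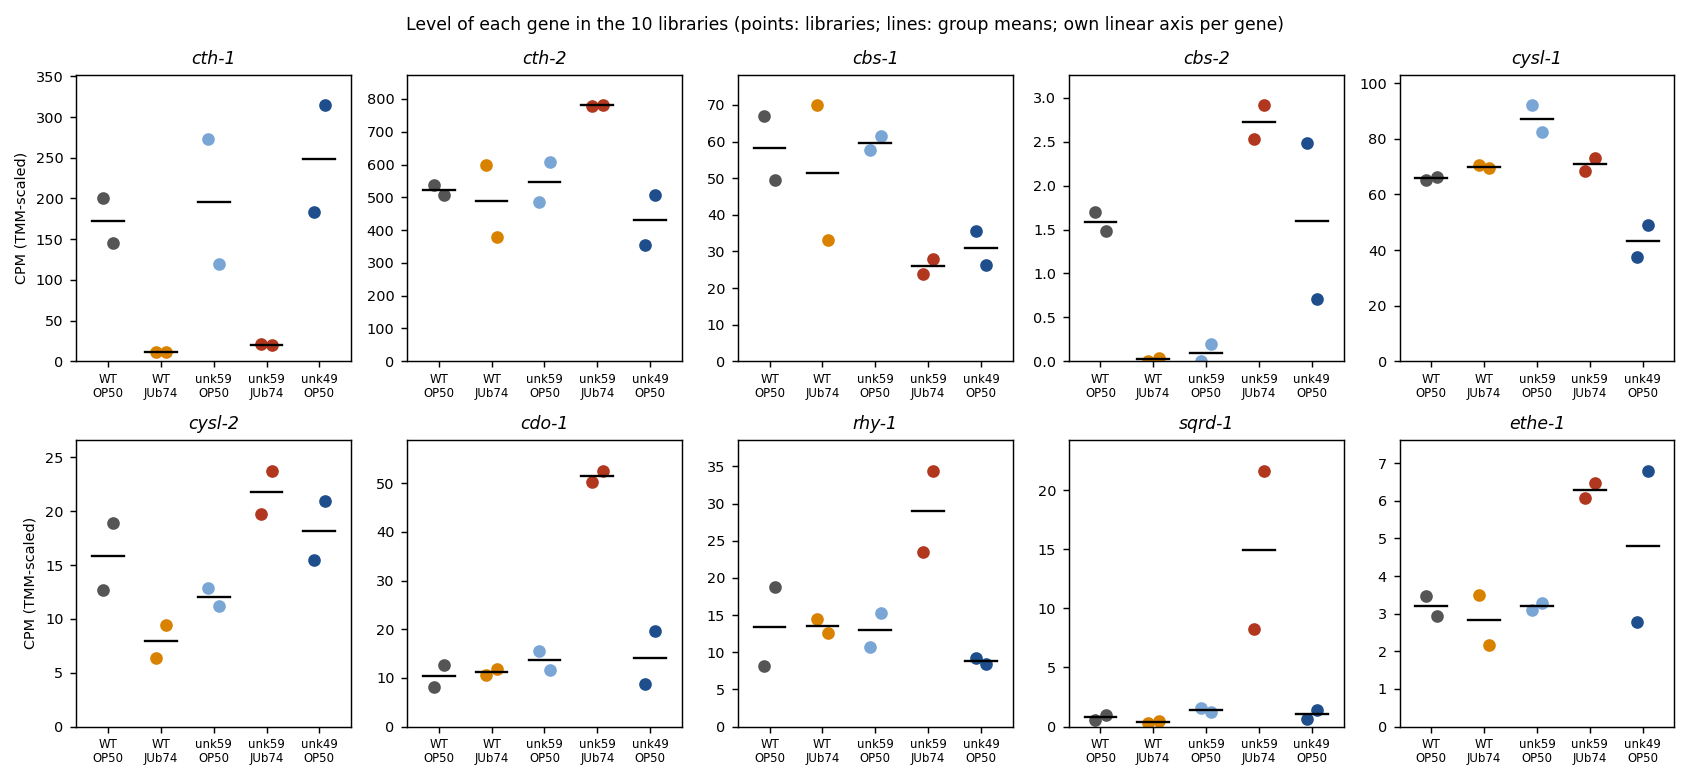
Level of each of the 10 genes in CPM, on a linear axis of its own that starts at 0, with 1 point per library and a line at the mean of each group of 2. cth-1 lay between 10.7 and 21.2 CPM in the 4 JUb74 libraries and between 119.3 and 314.5 CPM in the 6 OP50 libraries, whereas cdo-1 and sqrd-1 were high in the unk59 libraries on JUb74.

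cth-1 encodes a cystathionine lyase, the enzyme of the last step of transsulfuration. Its level was 200.3 and 145.5 CPM in wild type on OP50 and 10.9 and 10.7 CPM in wild type on JUb74. In unk59 it was 272.7 and 119.3 CPM on OP50 and 21.2 and 19.8 CPM on JUb74. In unk49 on OP50 it was 183.1 and 314.5 CPM. Every JUb74 library was thus below every OP50 library, whatever the genotype, and the libraries of a group spread far more on OP50 than on JUb74. These are the values that chose the set. The fitted log2 fold change between foods was -3.997 (SE 0.425) in wild type, a 16.0-fold difference, and -3.26 (SE 0.408) in unk59, a 9.55-fold difference. Without library 1 of unk59 on OP50 the latter was -2.54. The difference between these was 0.74 (SE 0.536), given as a description, or 1.46 without library 1 of unk59 on OP50.

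The level of cth-1 was set beside the sum of the oocyte and eggshell markers. On JUb74 it was low in wild type, where those markers summed to at most 15.7 CPM, and also in unk59, where they summed to at least 1411 CPM. On OP50 it was high in unk49, with a marker sum of at least 1707 CPM, and in unk59, with at most 26.2 CPM. The wild-type and unk59 levels chose the set, and the part of developmental timing in these levels was not tested. Genotype differences in cth-1 did not pass the threshold of 0.05 on the adjusted p. The choice of genes did not use these differences, but it used cth-1 values of the same wild-type and unk59 libraries. The p-values of cth-1 are thus not independent of the choice. On OP50 the log2 fold change against wild type was 0.18 (SE 0.372, adjusted p 0.892) for unk59 and 0.53 (SE 0.373, adjusted p 0.272) for unk49. unk59 stood above its wild-type counterpart on JUb74 by 0.92 (SE 0.387, adjusted p 0.0650), with both unk59 libraries above both wild-type libraries. That value lay on either side of the threshold: without library 1 of unk59 on OP50, which enters only through the shared spread, it was 0.92 with an adjusted p of 0.0183, and without library 2 of that group 0.92 with 0.0184. Without library 1 or 2 of unk49 on OP50 it was 0.96 (adjusted p 0.0434) or 0.95 (adjusted p 0.0440). It also passed with RLE scaling (0.98, adjusted p 0.0498), with at least 10 reads required in every library (1.04, adjusted p 0.0407) and by DESeq2 (0.98, adjusted p 0.0238), and over 17 alternatives its adjusted p ranged from 0.0183 to 0.176. unk49 against unk59 on OP50 was 0.34 (SE 0.373, adjusted p 0.453), or 1.06 (adjusted p 0.0356) without library 1 of unk59 on OP50.

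cth-2 encodes the other cystathionine lyase and kept a high level on both foods. It stood at 538.9 and 508.2 CPM in wild type on OP50 and at 598 and 380 CPM in wild type on JUb74, and these groups overlapped. In unk59 it was 486.8 and 608 CPM on OP50 and 780 and 781 CPM on JUb74. In unk49 on OP50 it was 354 and 506 CPM. The fitted log2 fold change between foods was -0.10 (SE 0.25) in wild type and 0.51 (SE 0.251) in unk59, again as a description. On JUb74, cth-2 rose in unk59 against wild type by 0.67 (SE 0.251, adjusted p 0.0422), a call that depended on single libraries. It was 0.43 (adjusted p 0.170) without library 2 and 1.04 (adjusted p 0.0109) without library 1 of wild type on JUb74. It was 0.68 (adjusted p 0.118) and 0.70 (adjusted p 0.105) without library 1 and library 2 of unk59 on JUb74, and 0.68 (adjusted p 0.0648) without either library of wild type on OP50. The difference of the diet values between genotypes was 0.61 (SE 0.354, adjusted p 0.191), or 0.98 (adjusted p 0.0449) without library 1 of wild type on JUb74.

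As a part of both lyases, cth-1 made up 27.6% and 22.7% of their summed level per kilobase in wild type on OP50, and 1.84% and 2.82% in wild type on JUb74. In unk59 its share was 36.5% and 16.7% on OP50 and 2.71% and 2.54% on JUb74, and in unk49 on OP50 it was 34.6% and 38.9%. The summed level of both lyases differed less between foods than cth-1 alone. In wild type it was 560.3 and 495 CPM per kilobase on OP50 and 458.6 and 294 on JUb74. In unk59 it was 577 and 549.96 on OP50 and 604 and 603 on JUb74. In each of the 10 libraries cth-2 thus made up the larger part of the lyase level per kilobase. Reads that fit more than 1 place in the genome were left out, so stretches shared by the lyases would be missing from both.

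**Figure D2:**
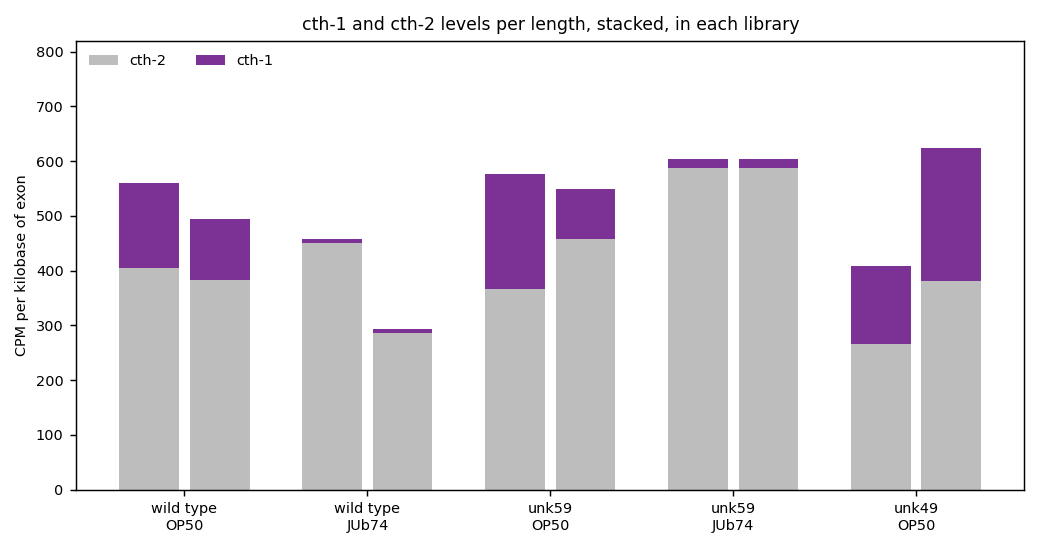
Stacked level of cth-2 (grey) and cth-1 (purple) in each library, in CPM per kilobase of exon. The purple share was 16.7% to 38.9% in the 6 OP50 libraries and 1.84% to 2.82% in the 4 JUb74 libraries.

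The synthase genes act a step earlier, and their patterns differed from that of cth-1 and from each other. cbs-1 encodes the abundant cystathionine synthase. It was at 67.0 and 49.6 CPM in wild type on OP50, 69.9 and 33.0 in wild type on JUb74 and 57.8 and 61.4 in unk59 on OP50. It was lower, at 23.8 and 28.0 CPM, in unk59 on JUb74, and at 35.5 and 26.4 CPM in unk49 on OP50. The latter groups are those with a high sum of oocyte and eggshell markers and low sums of moulting-cycle genes and of hypodermal and neuronal markers. cbs-1 fell in unk49 against wild type on OP50, with a fitted log2 difference of -0.91 (SE 0.327, adjusted p 0.0450), and in unk49 against unk59, by -0.95 (SE 0.327, adjusted p 0.0344). In unk59 against wild type on JUb74 it fell by -0.99 (SE 0.328, adjusted p 0.0268). Its fold change between foods was -0.18 (SE 0.324) in wild type and -1.20 (SE 0.329) in unk59, and the difference between these did not pass (-1.02, SE 0.46, adjusted p 0.101), or passed without library 2 of wild type on JUb74 (-1.32, adjusted p 0.0228).

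The calls of cbs-1 depended on single libraries and settings. On JUb74 the difference was -0.35 (adjusted p 0.323) without library 1 of wild type, -0.87 (adjusted p 0.136) without library 1 of unk59 and -1.08 (adjusted p 0.0857) without library 2 of unk59. In unk49 against wild type it was -0.68 (adjusted p 0.229) and -1.12 (adjusted p 0.0661) without library 1 and library 2 of wild type on OP50, and -0.80 (adjusted p 0.153) without library 2 of unk49. Without a library of unk59 it missed the threshold, at an adjusted p of 0.0503 and 0.0505 without library 1 and library 2 on OP50 and 0.0658 without library 1 on JUb74. In unk49 against unk59 it was -0.99 (adjusted p 0.0733) and -0.91 (adjusted p 0.0933) without library 1 and library 2 of unk59 on OP50, and -0.73 (adjusted p 0.167) without library 2 of unk49. There too it was -0.95 (adjusted p 0.0515) and -0.96 (adjusted p 0.0526) without library 1 and library 2 of unk59 on JUb74. RLE scaling gave an adjusted p of 0.0559 against wild type and 0.0543 against unk59, and requiring 10 reads in every library gave 0.0531 and 0.0632. The strand column gave 0.0585 against wild type.

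cbs-2 encodes the second synthase and was close to the limit of detection. It had 37 and 33 reads in wild type on OP50, 0 and 1 in wild type on JUb74, and 0 and 4 in unk59 on OP50. In unk59 on JUb74 it had 59 and 71 reads and in unk49 on OP50 58 and 16. The groups with few cbs-2 reads were those with low sums of 3 marker lists. The 9 sperm genes summed to between 1.35 and 7.64 CPM there and to between 22.3 and 154.6 CPM in the other groups. The oocyte and eggshell genes summed to at most 26.2 and at least 81.7 CPM, and 5 germ line genes to at most 85.3 and at least 208.6 CPM. Other lists did not split the groups in this way. The 6 vitellogenin genes summed to 73.2 and 5410 CPM in unk59 on OP50, and to 4423 and 2058 CPM in wild type on OP50. The moulting-cycle genes summed to 3434 and 4001 CPM in wild type on OP50, within the 2978 to 5494 CPM of the groups with few reads. On JUb74 the summed cbs-2 reads of unk59 exceeded those of wild type 121-fold, with a 95% exact interval of 21.3 to 4811 that covers counting error only (adjusted p 0.000834). On OP50, unk49 exceeded unk59 16.4-fold (6.13 to 61.6, adjusted p 0.00646). The single wild-type read on JUb74 and all 4 unk59 reads on OP50 were in library 2, so without it these ratios have a count of 0 below them. Fitted fold changes of this gene depend on the prior count and are not given as sizes. unk59 against wild type on OP50 did not pass (adjusted p 0.187), or passed without library 2 of unk59 on OP50 (adjusted p 0.0470).

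cysl-1, the sulfide sensor of the HIF-1 pathway, differed little between foods in wild type and was somewhat lower on JUb74 in unk59. It was at 65.3 and 66.3 CPM in wild type on OP50 and at 70.5 and 69.5 CPM in wild type on JUb74. In unk59 it was 92.1 and 82.3 CPM on OP50 and 68.4 and 73.3 CPM on JUb74. The fitted log2 fold change between foods was 0.09 (SE 0.173) in wild type and -0.30 (SE 0.173) in unk59, as a description. The lowest levels of cysl-1 were 37.4 and 49.1 CPM, in unk49 on OP50. cysl-1 fell in unk49 against unk59 on OP50, with a fitted log2 difference of -1.01 (SE 0.175, adjusted p 0.00144), with no overlap between the groups. Against wild type on OP50, unk49 differed by -0.60 (SE 0.174, adjusted p 0.0189), where the median of all genes was 0.11. That call was lost without library 1 (-0.62, adjusted p 0.0865) or library 2 (-0.60, adjusted p 0.0943) of wild type on OP50. The difference of unk59 from wild type was 0.41 (SE 0.173, adjusted p 0.416) on OP50 and 0.02 (SE 0.173, adjusted p 0.937) on JUb74.

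cysl-2 encodes a relative of CYSL-1 that detoxifies cyanide in C. elegans and is a target of HIF-1. It was at 12.7 and 18.9 CPM in wild type on OP50 and at 6.39 and 9.47 CPM in wild type on JUb74. In unk59 it was 12.9 and 11.2 CPM on OP50 and 19.7 and 23.8 CPM on JUb74, so the foods differed in opposite directions in the genotypes. The fitted values were -0.99 (SE 0.288) in wild type and 0.86 (SE 0.285) in unk59. Their difference was 1.85 (SE 0.405, adjusted p 0.00536), and it passed with any library left out. On JUb74 cysl-2 rose in unk59 against wild type by 1.45 (SE 0.29, adjusted p 0.00218). In unk49 on OP50 it was 15.5 and 20.9 CPM, a fitted log2 difference of 0.20 (SE 0.282, adjusted p 0.576) from wild type.

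rhy-1 encodes a predicted membrane acyltransferase that holds back HIF-1 and is itself induced by it. It was at 8.11 and 18.8 CPM in wild type on OP50 and at 14.5 and 12.6 CPM in wild type on JUb74. In unk59 it was 10.7 and 15.3 CPM on OP50 and 23.5 and 34.4 CPM on JUb74, and in unk49 on OP50 9.25 and 8.35 CPM. It rose in unk59 against wild type on JUb74, with a fitted log2 difference of 1.10 (SE 0.375, adjusted p 0.0298). The call was lost without library 1 (1.21, adjusted p 0.0781) or library 2 (1.05, adjusted p 0.116) of the wild-type JUb74 group, and without library 2 of the unk59 JUb74 group (0.82, adjusted p 0.178). The difference of the diet values between genotypes was 1.15 (SE 0.529, adjusted p 0.107), and passed without library 1 of wild type on OP50 (1.63, adjusted p 0.0212). unk49 against wild type on OP50 was -0.61 (SE 0.378, adjusted p 0.211), or -1.09 (adjusted p 0.0436) without that library.

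Of the genes that remove cysteine and sulfide by oxidation, cdo-1 and sqrd-1 were higher in both unk59 libraries on JUb74 than in the other 8, and ethe-1 was not. cdo-1 encodes cysteine dioxygenase, which commits cysteine to breakdown. It was at 8.20 and 12.7 CPM in wild type on OP50, 10.7 and 11.8 in wild type on JUb74 and 15.6 and 11.7 in unk59 on OP50. In unk59 on JUb74 it was 50.2 and 52.6 CPM, above the 8.65 and 19.7 CPM of unk49 on OP50 and every other library. cdo-1 rose in unk59 against wild type on JUb74, with a fitted log2 difference of 2.19 (SE 0.372, adjusted p 0.000901), a 4.57-fold difference that passed with any library left out. The fitted difference between foods was 0.11 (SE 0.365) in wild type and 1.92 (SE 0.368) in unk59. The difference between these was 1.81 (SE 0.514, adjusted p 0.0189). It did not pass without library 2 of wild type on OP50 (1.46, adjusted p 0.0810), library 1 of wild type on JUb74 (1.74, adjusted p 0.0583) or library 2 of unk59 on OP50 (1.62, adjusted p 0.0546).

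sqrd-1 encodes the mitochondrial sulfide:quinone oxidoreductase, the entry enzyme of sulfide oxidation. It was at 0.596 and 0.990 CPM in wild type on OP50, 0.288 and 0.509 in wild type on JUb74 and 1.57 and 1.19 in unk59 on OP50. In unk59 on JUb74 it was 8.26 and 21.7 CPM, from 193 and 528 reads. In unk49 on OP50 it was 0.643 and 1.41 CPM. The unk59 libraries on JUb74 thus stood above the other 8, which held 6 to 32 reads each, although they also differed from each other. sqrd-1 rose in unk59 against wild type on JUb74, with a fitted log2 difference of 5.20 (SE 0.638, adjusted p 0.000161), a 36.7-fold difference. Its size depended on single libraries, with 4.36 without library 2 and 5.74 without library 1 of unk59 on JUb74. The difference of the diet values between genotypes was 4.40 (SE 0.873, adjusted p 0.00317). Leaving out library 2 of unk59 on JUb74 gave 3.66, leaving out library 2 of the wild-type JUb74 group gave 5.03, and the strand column gave 5.25. Both passed with any library left out.

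ethe-1 encodes the mitochondrial persulfide dioxygenase that acts after SQRD-1. It was at 3.48 and 2.93 CPM in wild type on OP50, 3.51 and 2.17 in wild type on JUb74 and 3.09 and 3.29 in unk59 on OP50. In unk59 on JUb74 it was 6.08 and 6.49 CPM, and in unk49 on OP50 2.78 and 6.81 CPM, so that library 2 of unk49 was the highest of the 10. It rose in unk59 against wild type on JUb74, with a fitted log2 difference of 1.15 (SE 0.423, adjusted p 0.0403). The call was lost without library 2 of wild type on JUb74 (0.89, adjusted p 0.166), without library 1 (1.20, adjusted p 0.0993) or library 2 (1.13, adjusted p 0.116) of unk59 on JUb74, and without library 1 or 2 of wild type on OP50 (1.15, adjusted p 0.0595 and 0.0593). The difference of the diet values between genotypes, 1.15 (SE 0.6, adjusted p 0.148), passed without library 1 or 2 of unk49 on OP50 (1.29, adjusted p 0.0350 and 0.0365). unk49 against unk59 on OP50, 0.58 (SE 0.422, adjusted p 0.263), passed without library 1 of unk49 (1.05, adjusted p 0.0365).

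**Figure D3:**
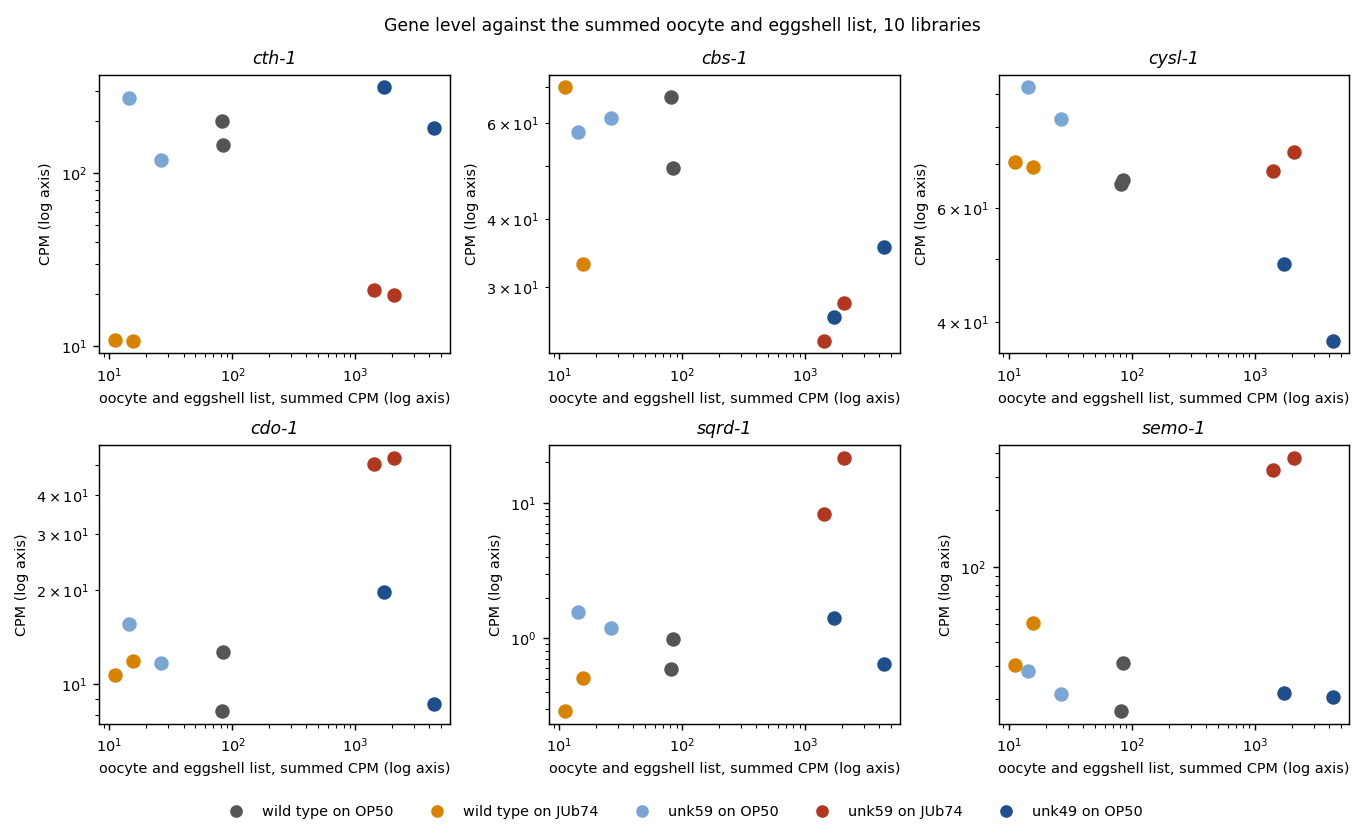
Level of 6 genes in CPM (vertical, log axis) against the summed level of 11 oocyte and eggshell genes in CPM (horizontal, log axis), 1 point per library, coloured by group. unk59 on JUb74 and unk49 on OP50 had marker sums between 1411 and 4343 CPM. cbs-1 was low in both, and also in library 2 of wild type on JUb74. cdo-1, sqrd-1 and semo-1 were high in unk59 on JUb74, and cth-1 was high in unk49 on OP50.

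The plot of levels against the marker sum sets unk59 on JUb74 beside unk49 on OP50, whose libraries both had high oocyte and eggshell sums. cdo-1 and sqrd-1 were at 50.2 to 52.6 and 8.26 to 21.7 CPM in the former. They were lower in the latter, at 8.65 to 19.7 and 0.643 to 1.41 CPM. These groups differ in both allele and food, and their difference was not tested. The summed level of 5 intestinal markers was also lowest in unk59 on JUb74, at 6730 and 8406 CPM against 13283 to 24128 in the other libraries. Other marker sums also differed between wild type and unk59 on JUb74. Those of 4 hypodermal genes were 408.4 and 479.7 CPM in wild type and 99.4 and 107.3 in unk59, and those of 6 neuronal genes 870.9 and 966.5 against 505.1 and 479.2. Those of 5 muscle genes were 7319.8 and 7049 against 4162 and 2826, and those of the germ line genes 39.2 and 85.3 against 239.7 and 358.6. The part of these differences in the members' values was not tested.

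The counts of members past the threshold are read against the share of all 15950 tested genes. In unk59 against wild type on OP50, 0 of 10 members passed, against 0.0125% of all genes. Among the members, 1 (cysl-1) and 1 (cbs-2) had an unadjusted p under 0.05 there, at 0.0426 and 0.00208, and among all genes 1845 did. DESeq2 passed 1 member, cbs-2, and 432 of all 15950 genes, 17 higher and 415 lower. In unk49 against wild type on OP50, 2 of 10 passed, both lower, against 46.3% of all genes, 27.2% higher and 19.1% lower. In unk49 against unk59 on OP50, 3 passed, 1 higher and 2 lower, against 54% of all genes, 30.2% higher and 23.8% lower. Under upper-quartile scaling the genes that passed split into 3649 higher and 4057 lower against wild type, and 4352 higher and 4666 lower against unk59, from 4345 and 3047, and 4818 and 3798. In unk59 against wild type on JUb74, 8 passed, 7 higher and 1 lower, against 59.0% of all genes, with 33.0% higher and 26.1% lower. The members had a median log2 difference of 1.13 and all genes of 0.08. In the interaction, 4 passed, all with a more positive value in unk59, against 43.3% of all genes, 23.3% in that direction and 20.0% in the other. The diet contrasts were used in the choice of the set, and nothing is read from their counts of 2 of 10 in wild type, both lower, against 8.94% of all genes (2.65% higher and 6.29% lower), and 7 of 10 in unk59, 5 higher and 2 lower, against 59.8% (33.5% higher and 26.3% lower). Comparisons that share control libraries are not independent.

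**Figure D4:**
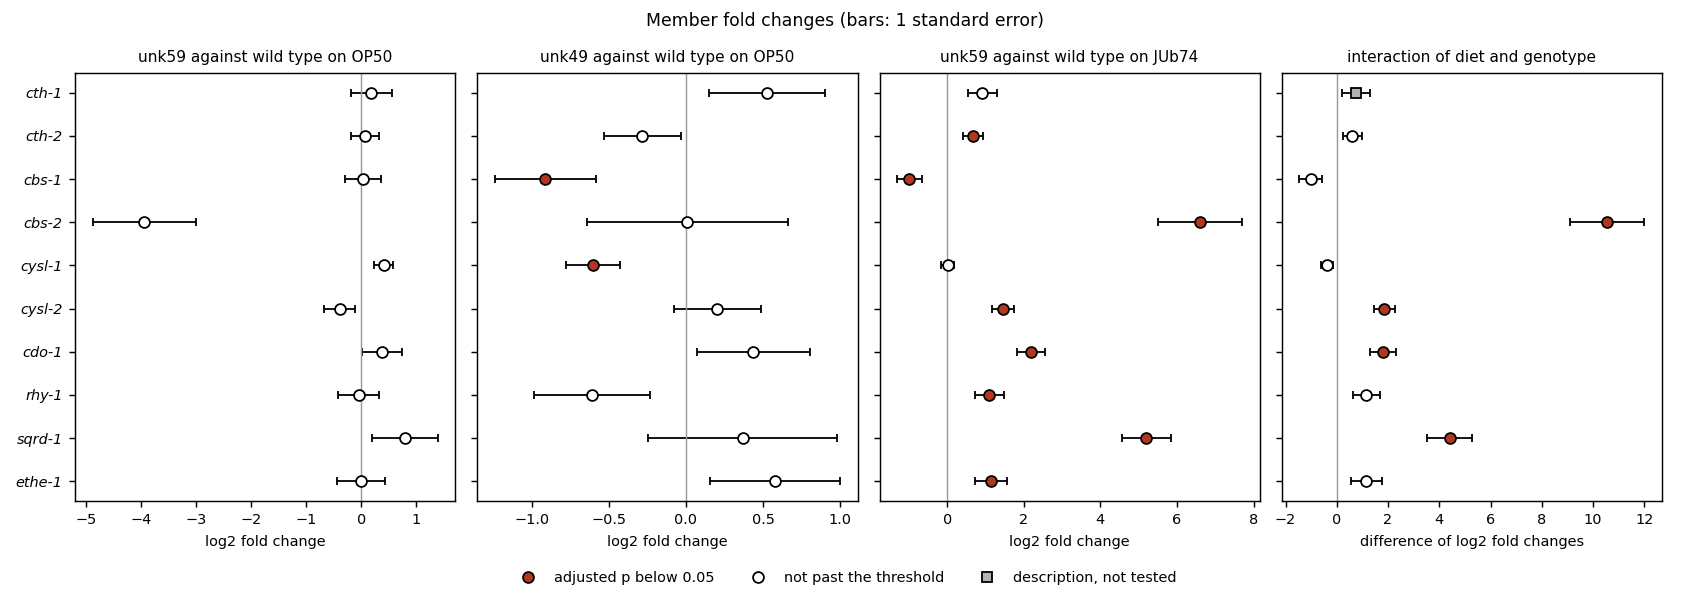
Fitted log2 fold change of the 10 genes (points, with bars of 1 standard error; own horizontal axis per panel) in 3 comparisons between genotypes and in the interaction, where the value is the diet difference in unk59 minus that in wild type. Filled points passed an adjusted p of 0.05, 8 of 10 in unk59 against wild type on JUb74 and 0 of 10 in unk59 against wild type on OP50; the grey square is cth-1, not tested there.

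The other genes of sulfur metabolism were followed in 4 lists. Of 19 listed genes of sulfur oxidation, sulfurtransferases and the molybdenum cofactor, 15 were matched by name and tested. On JUb74, 9 of them rose and 2 fell in unk59 against wild type, where 33.0% of all genes were called higher and 26.1% lower. semo-1, which encodes a methanethiol oxidase that releases sulfide, was at 30.1 and 50.6 CPM in wild type and 326 and 379 CPM in unk59. In the remaining groups semo-1 lay between 17.2 and 30.8 CPM, unk49 included, so the unk59 libraries on JUb74 stood above the other 8. Among the members this also held for cdo-1, sqrd-1, cth-2 and rhy-1, and narrowly for cbs-2 (2.53 and 2.91 against at most 2.48 CPM). The share of all genes with this pattern was not computed, so it is not read as a trait of the members. The log2 fold change of semo-1 on JUb74 was 3.13 (SE 0.336, adjusted p 8.81e-05). The difference of its diet values between genotypes was 3.09 (SE 0.453, adjusted p 0.00065).

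mpst-7, a mercaptopyruvate sulfurtransferase gene, went the other way. It was at 56.9 and 54.7 CPM in wild type on JUb74 and at 16.0 and 15.1 CPM in unk59 on JUb74, a fitted log2 difference of -1.85 (SE 0.154, adjusted p 3.40e-05). It also fell in unk49 on OP50, to 12.0 and 11.7 CPM from 39.73 and 39.74 CPM in wild type, by -1.75 (SE 0.154, adjusted p 0.000259). It was thus low in both groups with high oocyte and eggshell sums, as was cbs-1, which was also low in library 2 of wild type on JUb74 (33.0 CPM). Those groups also had the lowest hypodermal sums, at 91.6 to 131.1 CPM against 232.5 to 479.7 elsewhere. Their neuronal sums were lowest too, at 423.2 to 505.1 CPM against 614.1 to 966.5. The part of any of these in the values was not tested. moc-5, needed to make the molybdenum cofactor, rose in unk59 against wild type on JUb74 by 1.51 (SE 0.241, adjusted p 0.000644), and cysl-3, a further relative of cysl-1, by 1.07 (SE 0.229, adjusted p 0.00319). In unk49 against wild type on OP50, 3 of the 15 rose and 2 fell, beside 27.2% and 19.1% of all genes, and in unk49 against unk59 5 rose and 2 fell, beside 30.2% and 23.8%.

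The methionine and S-adenosylmethionine cycle supplies homocysteine. Of its 11 genes, 1 rose and 7 fell in unk49 against wild type on OP50, where 46.3% of all genes were called, 19.1% as lower. The list's median log2 difference was -1.13, beside 0.11 for all genes. sams-1, the main S-adenosylmethionine synthetase gene, went from 3202 and 3113 CPM to 839 and 637 CPM (-2.10, SE 0.271, adjusted p 0.000686). ahcy-1, whose enzyme releases homocysteine, went from 5224 and 7583 CPM to 1983 and 1824 CPM (-1.75, SE 0.237, adjusted p 0.000809). mtrr-1, the methionine synthase reductase gene, fell by -1.67 (SE 0.242, adjusted p 0.00102). Against unk59 on OP50, unk49 showed 1 gene of the list higher and 6 lower (30.2% and 23.8% of all genes), among them sams-1 (-2.19) and ahcy-1 (-1.88). On JUb74, 1 rose and 3 fell in unk59 against wild type, beside 33.0% and 26.1% of all genes, and in unk59 against wild type on OP50 none of the 4 lists had a gene past the threshold by edgeR (0 of 39 genes).

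Of 7 genes of the HIF-1 pathway, 1 rose and 3 fell in unk49 against wild type on OP50, and 2 rose and 4 fell in unk59 against wild type on JUb74. Of all genes 46.3% were called in the former comparison and 59.0% in the latter. Against unk59 on OP50, unk49 had 1 higher and 4 lower, with 54% of all genes called. Among the lower was phy-2, a collagen prolyl hydroxylase subunit and HIF-1 target (-1.34, SE 0.219, adjusted p 0.00109). In the same list, nhr-57 and F22B5.4 did not fall, with means of 3.42 and 2.14 CPM in unk59 and 3.86 and 4.80 CPM in unk49 on OP50. On JUb74 their means were 4.21 and 2.06 CPM in wild type and 8.52 and 8.77 CPM in unk59. hif-1 itself, named after its values were seen, was at 405 and 388.5 CPM in wild type on OP50 and between 269.5 and 314.1 CPM in both unk59 libraries on JUb74 and both unk49 libraries. Of 6 glutathione and thioredoxin genes, 0 rose and 2 fell in unk59 against wild type on JUb74, and 0 rose and 1 fell in unk49 against wild type on OP50, under the same shares of all genes. In the interaction, 2 of 11 methionine cycle genes, 8 of 15 sulfur oxidation genes, 2 of 7 HIF-1 pathway genes and 0 of 6 glutathione and thioredoxin genes passed, beside 43.3% of all genes.

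Between foods in wild type, 3 of the 39 genes in these lists passed, all lower on JUb74, where 8.94% of all genes were called and 6.29% as lower. They are named because they are few. sams-5 had 61 and 57 reads on OP50 and 1 and 6 on JUb74, cysl-4 had 12 and 15 against 0 and 0, and mpst-4 had 64 and 37 against 0 and 0. Like cbs-2, all 3 had more reads in unk59 on JUb74 and in unk49 on OP50 than in wild type on JUb74. Their choice as low in wild type on JUb74 largely fixes this. In unk59, where the foods are likewise only described, 4 and 2 methionine cycle genes were past the threshold as higher and lower on JUb74, with 8 and 2 for sulfur oxidation, 2 and 4 for the HIF-1 pathway and 0 and 3 for glutathione and thioredoxin, against 33.5% and 26.3% of all genes.

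Among 6452 named genes with a mean log2 CPM of at least 2, the 5 whose log2 CPM followed that of cth-1 most closely over the 10 libraries were pycr-4, acs-1, argk-1, nhr-202 and dcs-1. Their Pearson coefficients with cth-1 were 0.984, 0.976, 0.961, 0.939 and 0.927, as a measure of likeness only. All 5, like cth-1, were lower in each of the 4 JUb74 libraries than in each of the 6 OP50 libraries. Their choice by likeness to cth-1 largely fixes this, so nothing is read from it. The size of the food difference varied among them. argk-1, an arginine kinase gene, was at 182.2 and 154.7 CPM in wild type on OP50 and at 0.865 and 0.594 CPM on JUb74. acs-1, which activates branched-chain fatty acids, was at 236.8 and 211.5 CPM and at 41.1 and 47.0 CPM in the same groups. pycr-4, a pyrroline-5-carboxylate reductase gene, differed less, at 26.0 and 24.4 CPM on OP50 and 16.2 and 14.6 CPM on JUb74. Library 1 of unk59 on OP50 was above library 2 for cth-1 (272.7 and 119.3 CPM) and for argk-1 (367.4 and 53.9 CPM). It was above by less for nhr-202 (14.3 and 10.7 CPM), dcs-1 (38.7 and 34.2 CPM) and pycr-4 (26.1 and 25.9 CPM). Only for acs-1 was it below (183.2 and 207.2 CPM).

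**Figure D5:**
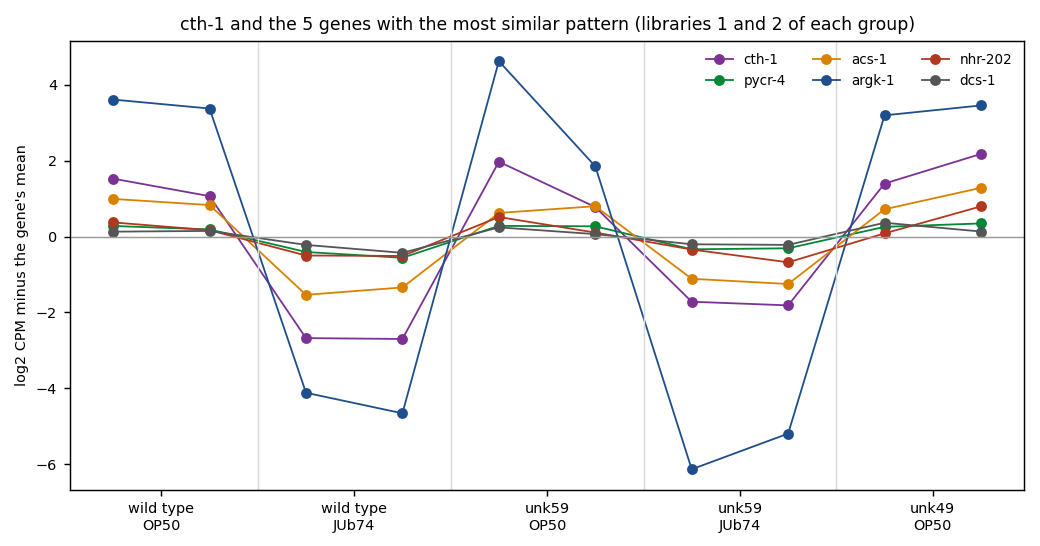
log2 CPM minus the gene's own mean for cth-1 and the 5 genes with the highest Pearson coefficient with it (0.927 to 0.984), for libraries 1 and 2 of each group from left to right. All 6 genes lay below their mean in the 4 JUb74 libraries and above it in the 6 OP50 libraries, which their choice largely fixes. Lines only guide the eye.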

How the data were processed

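The deposited files give, for each gene, the raw count of read pairs, which the authors did not normalize. Per the submitters' processing notes, STAR 2.7.10, DESeq2 and the build WBcel235 were used; the annotation release is not given in the sources used here. Per the labels' protocols the library kit was strand-specific, but in the strand column with more reads the median gene had only 49.8% to 50.1% of them, so counts without regard to strand were used. Sense and antisense reads are thus counted alike, and multimapping reads (2.28% to 3.49%) are missing. The 4 summary rows stayed out of tests: unmapped pairs were 2.02% to 2.61% of a library, 0.350% to 0.537% fell outside genes and 1.72% to 1.85% were ambiguous. A further table (1 in all) has no linked sample and stayed out.

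Counts of 10 libraries were fitted in R 4.3.3 with edgeR 4.0.16 (TMM, filterByExpr, a mean for each of 5 groups, robust quasi-likelihood F tests, two-sided), with Benjamini-Hochberg adjustment over 15950 genes with 0.05 as the threshold. Spread was estimated over all groups, and the common biological coefficient of variation was 23.4%. Every adjusted p comes from this test unless another is named. CPM are counts divided by TMM-scaled library sizes, and lengths are merged exons of the Ensembl 115 annotation, which held 46603 of 46778 IDs. Libraries of a group differed beyond sampling noise (chi-square per degree of freedom 19.8 to 88.9 over genes with at least 10 summed reads) and were kept apart. The test was checked on simulated data for unk49 against wild type on OP50 only, with large changes in a small share of genes. Other comparisons, smaller changes and changes in genes of low level were not covered. The members, lists and tests were chosen with earlier results of these data known. All members are named; of the other lists, at most 4 passing genes per comparison with the largest change among those whose mean log2 CPM reached 2, and any beyond these were chosen after their values were seen. No sequences are shown. Alternatives were other scalings (RLE, upper quartile), filters, the strand column, DESeq2 1.42.0, a replicate block, a timing covariate and leaving out each library.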

Additional observations from a re-analysis of the deposited data

Results flagged for a closer look

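The difference between foods differed between unk59 and wild type by the interaction test of edgeR's quasi-likelihood fit (diet log2 fold change in unk59 minus that in wild type) for 4 of 10 members. Of all genes tested, 43.3% passed the same test, so nothing about the members is read from their count. In the other lists, 2 of 11 methionine cycle genes, 8 of 15 sulfur oxidation genes, 2 of 7 HIF-1 pathway genes and 0 of 6 glutathione and thioredoxin genes passed. The members were sqrd-1 (4.40, SE 0.873, adjusted p 0.00317), cysl-2 (1.85, SE 0.405, adjusted p 0.00536), cdo-1 (1.81, SE 0.514, adjusted p 0.0189) and cbs-2 (10.55, SE 1.46, adjusted p 0.000504). The value of cbs-2 rests on groups with 1 and 4 reads in all, depends on the prior count and is no measure of size. Of the other lists the 4 genes named, those with the largest difference among genes with a mean log2 CPM of at least 2, were semo-1 (3.09, SE 0.453, adjusted p 0.00065), moc-5 (1.66, SE 0.339, adjusted p 0.00372), cysl-3 (1.29, SE 0.324, adjusted p 0.0106) and mpst-7 (-2.05, SE 0.213, adjusted p 0.000165). The timing markers differed between the same groups, and the part of timing in these values cannot be told apart from that of diet and genotype.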

How the results depend on the processing

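Of 1246 alternative fits of single members, 1137 kept the side of the threshold and the direction of any called value; 81 values that passed in neither fit changed sign. The oocyte and eggshell mean as a covariate left 0 members past the threshold in all 7 comparisons. Since 98.1% of its variance lies between groups, such a fit has almost no information on the groups. With it the values of cth-1 (0.40, SE 1.35), cbs-2 (-1.06) and rhy-1 (-0.77) between foods in unk59, cysl-1 (0.11) in unk49 against wild type, rhy-1 (-1.03) in unk59 against wild type on JUb74, and cysl-1 (0.037) and cbs-2 (-3.04) in unk49 against unk59 turned sign. Requiring 10 reads in every library drops cbs-2 and sqrd-1 and gave 1 member between foods in wild type, 1 in unk49 against wild type and 2 in the interaction. In unk49 against wild type, RLE scaling and the strand column each gave 1. In unk59 against wild type on OP50, no filter and DESeq2 each gave 1.

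With 1 library left out, the counts ranged from 1 to 3 between foods in wild type, 5 to 9 in unk59, 0 to 1 for unk59 and 0 to 2 for unk49 against wild type on OP50, 4 to 9 for unk59 against wild type on JUb74, 2 to 4 for unk49 against unk59 and 3 to 5 for the interaction. The genes called among all those tested, 16359 to 16484 in these fits, then ranged from 13 to 1921 between foods in wild type, 7224 to 10473 in unk59, 0 to 409 for unk59 and 4141 to 7540 for unk49 against wild type on OP50, 7149 to 10218 for unk59 against wild type on JUb74, 6576 to 8765 for unk49 against unk59 and 5035 to 7697 for the interaction. Over all genes, the 1426 called between foods in wild type became 429 with at least 10 reads per library, 912 with the strand column, 2166 by DESeq2 and 579 with the replicate block. The 2 called for unk59 against wild type on OP50 became 1 with RLE, 102 with no filter, 7 with at least 10 reads, 432 by DESeq2 and 0 with the strand column or the block. At least 10 reads also gave 6194 in place of 9545 between foods in unk59 and 4365 in place of 6908 in the interaction. The timing covariate gave 172 between foods in unk59, 134 in place of 9417 for unk59 against wild type on JUb74, and 0 in the other comparisons. The alternatives were fitted over all genes, but single values were kept only for the members. How far the named genes of the other lists depend on them was not examined. With a library left out, the food difference of cth-1 ranged from -4.22 to -3.75 in wild type and from -3.74 to -2.54 in unk59. Upper-quartile scaling moved the median of all genes from 0.11 to -0.09 in unk49 against wild type and from 0.03 to -0.12 against unk59.

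The labels give no replicate numbers. Library numbers from the tables' names did not pair the libraries: deviations of same-numbered libraries correlated between -0.29 and 0.26 over 10 pairs of groups. A replicate block on them gave 6 members in unk59 against wild type on JUb74, without ethe-1 (1.14, adjusted p 0.0616) and cth-2 (0.67, adjusted p 0.0596). Depth limits cbs-2, whose values rest on 0 to 71 reads per library, and sqrd-1 outside unk59 on JUb74, with 6 to 32.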
